A study of Mus musculus with 12 samples.

Results

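The T-box loci described here are the gene neighbourhoods of 9 T-box transcription factors: T, Eomes, Tbx1, Tbx2, Tbx4, Tbx5, Tbx15, Tbx18 and Tbx20. Their members were accessible regions (ATAC-seq peaks, each 502 bp wide in the count tables) that overlapped the body of 1 of these genes, as annotated in GENCODE M21 on GRCm38, extended by 20 kb on each side. Of the 91354 peaks of the BGI peak set 56 were members, and of the 87027 peaks of the Illumina peak set 53 were. On the BGI set Tbx2 had 12 of them, Tbx15 8, Eomes 7, Tbx18 7, Tbx4 6, Tbx1 5, Tbx20 5, T 4 and Tbx5 2. All 56 and all 53 passed the filter on low counts. The study asked whether a BGI DNBSEQ-G400 sequencer gives the same picture of open chromatin as an Illumina HiSeqX10, and ran the same Omni-ATAC-seq libraries on both. In Omni-ATAC-seq the transposase Tn5 cuts DNA that is not packed away and tags the cut ends, so that the read count over a region follows its accessibility. The cells were mouse embryonic fibroblasts (MEFs), sorted as Thy1+, and embryonic stem cells of the mouse (mESCs), with the sort Thy1-/Ssea1+/Epcam+. All came from C57/Bl6. Each cell type had 3 libraries, which the study calls biological replicates (MEF libraries 1, 2 and 4, mESC libraries 1, 3 and 5), and hence 12 samples in 4 groups of 3: MEF on BGI, MEF on Illumina, mESC on BGI and mESC on Illumina. The labels name no further treatment or genotype.

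T-box factors share a DNA-binding domain, the T-box, and act as activators or repressors of genes that lay out the early embryo. T (Brachyury) and Eomes are switched on as pluripotent cells turn into mesoderm and endoderm. Tbx1, Tbx5, Tbx18 and Tbx20 serve the pharynx and heart, Tbx2 is a repressor with many sites of action, and Tbx4 and Tbx15 are used in the mesenchyme of the limb, lung and skin. Fibroblasts of the embryo descend from mesoderm for the most part and can keep such genes open according to where they came from, whereas in stem cells many of these genes are silent or poised.

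Sequences are given for 8 member peaks outside exons and promoters that differed between MEFs and mESCs in the comparison below, because they had the lowest adjusted p at their genes, in either direction, away from the strongest promoter peak. Each is the central 220 bases of the peak, read 5′ to 3′ on the plus strand of GRCm38. Capitals mark matches to TGANTCA, the letters bound by AP-1 factors, or to GGAATG, bound by TEAD factors, on either strand. The first 4 peaks were more accessible in mESCs.
T chr17:8430083-8430302: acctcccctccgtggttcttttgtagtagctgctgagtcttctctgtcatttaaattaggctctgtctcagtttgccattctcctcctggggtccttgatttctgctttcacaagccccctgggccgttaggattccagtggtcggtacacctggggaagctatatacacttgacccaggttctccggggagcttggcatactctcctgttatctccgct
Eomes chr9:118497053-118497272: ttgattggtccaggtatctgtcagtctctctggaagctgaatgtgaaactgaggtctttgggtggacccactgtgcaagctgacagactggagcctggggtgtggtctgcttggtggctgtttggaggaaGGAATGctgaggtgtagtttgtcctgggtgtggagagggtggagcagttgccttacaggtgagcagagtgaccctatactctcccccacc
Tbx4 chr11:85900344-85900563: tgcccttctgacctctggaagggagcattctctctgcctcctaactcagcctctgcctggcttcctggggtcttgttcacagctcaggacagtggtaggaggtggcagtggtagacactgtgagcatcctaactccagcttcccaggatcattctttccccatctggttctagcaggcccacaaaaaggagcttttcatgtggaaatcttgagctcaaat
Tbx15 chr3:99248431-99248650: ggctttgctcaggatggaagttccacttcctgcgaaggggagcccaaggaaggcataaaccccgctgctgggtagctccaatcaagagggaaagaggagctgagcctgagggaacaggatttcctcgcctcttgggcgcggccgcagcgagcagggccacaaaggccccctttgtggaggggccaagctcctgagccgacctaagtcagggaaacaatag
The other 4 were more accessible in MEFs.
T chr17:8455664-8455883: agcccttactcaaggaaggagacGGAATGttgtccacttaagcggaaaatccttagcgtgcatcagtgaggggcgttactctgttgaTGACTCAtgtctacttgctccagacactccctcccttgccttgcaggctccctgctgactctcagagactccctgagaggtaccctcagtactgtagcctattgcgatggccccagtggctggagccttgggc
Tbx2 chr11:85838922-85839141: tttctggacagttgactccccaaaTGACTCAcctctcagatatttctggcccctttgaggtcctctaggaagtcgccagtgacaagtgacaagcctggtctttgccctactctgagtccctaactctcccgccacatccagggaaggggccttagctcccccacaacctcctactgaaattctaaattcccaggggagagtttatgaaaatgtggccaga
Tbx4 chr11:85925462-85925681: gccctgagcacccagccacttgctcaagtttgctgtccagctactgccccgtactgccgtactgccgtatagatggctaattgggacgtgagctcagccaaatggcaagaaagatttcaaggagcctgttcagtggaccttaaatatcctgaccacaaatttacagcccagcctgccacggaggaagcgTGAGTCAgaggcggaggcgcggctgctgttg
Tbx15 chr3:99233786-99234005: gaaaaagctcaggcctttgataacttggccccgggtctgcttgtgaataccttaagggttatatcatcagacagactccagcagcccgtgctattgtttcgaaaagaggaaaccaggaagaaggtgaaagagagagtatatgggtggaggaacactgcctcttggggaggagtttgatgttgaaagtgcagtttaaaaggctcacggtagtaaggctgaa
TGANTCA, which reads the same on both strands, was present in the printed bases of 3 of the 4 peaks that were higher in MEFs, at T, Tbx2 and Tbx4, and in none of the 4 that were higher in mESCs. Over whole peaks it was found in 7 of the 56 members (12.5%), against 25.2% of all BGI peaks. Of the BGI peaks called higher in mESCs 18.6% held it and of those called lower 35.6%, against 2 of the 23 member peaks called higher and 4 of the 22 called lower. GGAATG was found in 10 of the 56 (17.9%), against 31.7% of all. The T-box letters AGGTGTGA were in 0 of the 56 members and in 1.95% of all BGI peaks. Of the letters bound by pluripotency factors, the octamer ATGCAAAT was in 2 members, the SOX letters ACAATGG in 1 and the ESRRB letters TCAAGGTCA in 0, against 3.21%, 6.53% and 1.42% of all BGI peaks. The member peaks were richer in GC than the peak set as a whole, with a median of 56.1% against 51.00%, and in CpG, with a median observed-to-expected CpG ratio of 0.548 against 0.283.

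The reads counted in the BGI peak set ranged from 20085886 to 21662775 in the 3 MEF samples on BGI and from 15860985 to 16911482 in the 3 mESC samples on BGI, after the study had down-sampled each sample to a read number fixed per cell type, larger for MEFs. Values are given as CPM, which is the count scaled to the sample's total in peaks, or as log2 fold changes from edgeR after TMM scaling, and a peak was called different at a Benjamini-Hochberg adjusted p under 0.05 over all peaks. The labelled cell types were checked at the promoters of marker genes, of which Thy1 and Epcam had also served for the sort. All 6 mESC markers (Pou5f1, Sox2, Nanog, Esrrb, Zfp42 and Epcam) were called higher in mESCs, where their summed level was 168 to 202 CPM on BGI against 20.6 to 21.3 CPM in MEFs. All 7 MEF markers (Thy1, Col1a1, Col1a2, Col3a1, Twist1, Prrx1 and Pdgfrb) were called lower in mESCs, at 50.8 to 52.1 CPM against 218 to 251 CPM. Among markers of other lineages, 1 of 3 endothelial genes, 1 of 3 blood genes and 2 of 3 cardiomyocyte genes had a promoter peak. The endothelial gene, Pecam1, was not called (adjusted p = 0.148 on BGI), and the blood gene, Cd79a, was called higher in mESCs, at 3.55 ± 0.9496 CPM in MEFs and 10.9 ± 1.98 CPM in mESCs (log2 fold change 1.55, SE 0.22, adjusted p = 4.68e-06). Both cardiomyocyte genes with a peak were called higher in mESCs on BGI. Myh6 rose from 0.739 ± 0.167 to 8.79 ± 0.269 CPM (log2 fold change 3.49, SE 0.27, adjusted p = 1.46e-09). Nkx2-5 rose from 2.78 ± 0.0483 to 7.37 ± 0.935 CPM (log2 fold change 1.34, SE 0.22, adjusted p = 1.80e-05). The summed cardiomyocyte level was 3.43 to 3.69 CPM in MEFs and 15.4 to 17.3 CPM in mESCs. That of the 3 mesendoderm genes Mixl1, Gsc and Mesp1 was 22.8 to 27.2 CPM in MEFs and 28.7 to 31.9 CPM in mESCs. Of those 3 genes Mixl1 alone was called on BGI (log2 fold change 0.79, adjusted p = 4.90e-04), while Gsc and Mesp1 had log2 fold changes of 0.21 and -0.28 (adjusted p = 0.267 and 0.105). The part of these marker levels in the values at the T-box loci was not tested. In bulk samples such as these, a region open in more cells and a region cut more often per cell cannot be told apart.

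Comparing mESCs with MEFs, the peaks of the T-box loci changed in both directions. On BGI 23 of the 56 member peaks were called higher in mESCs, 22 were called lower and 11 were not called. Over all peaks of the set 84.1% were called, 40.9% higher and 43.2% lower, so the share of members called was near the background. On Illumina 25 of the 53 were higher, 20 lower and 8 not called, against 84.5% called over all peaks, 42.1% higher and 42.4% lower. The 3 samples of each cell type did not overlap at 46 of the 56 BGI members and 42 of the 53 Illumina members, against 85.1% and 85.6% of all peaks. The member peaks had smaller differences at the median than peaks in general, with a median size of the log2 fold change of 0.92 on BGI and 0.94 on Illumina, against 1.74 and 1.67 over all peaks. The median log2 fold change was 0.04 for BGI members and 0.10 for Illumina members, against -0.08 and -0.03 over all peaks. With the down-sampled read numbers as library sizes the medians over all peaks moved to 0.06 and 0.09 and those of the members to 0.19 and 0.22. A call together with a change of 1 or more on the log2 scale was made at 24 BGI members and 25 Illumina members, against 63.0% and 61.8% of all peaks. The study built each peak set from lists of peaks reproducible within MEFs or within mESCs. Of the BGI members 20 were on the mESC list only, 15 on the MEF list only and 21 on both. On Illumina these counts were 21, 10 and 22. A peak on 1 list entered the set through that cell type, so its contrast is not independent of how it was chosen.

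All 5 Tbx20 peaks and 5 of 7 Eomes peaks were called higher in mESCs on BGI, as were 4 of 7 Tbx18 peaks, 4 of 6 Tbx4 peaks and 2 of 5 Tbx1 peaks. Tbx15 had 7 of 8 peaks called lower in mESCs, Tbx2 8 of 12 and Tbx5 2 of 2. T was split, with 2 peaks higher and 2 lower. On Illumina the counts were 5 of 5 higher for Tbx20, 6 of 8 for Eomes, 5 of 6 for Tbx18, 4 of 6 for Tbx4 and 2 of 4 for Tbx1, and 7 of 8 lower for Tbx15, 6 of 10 for Tbx2 and 2 of 2 for Tbx5. No Tbx2 or Tbx5 peak was called higher in mESCs on either set, and no Tbx20 peak was called lower.

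**Figure D1:**
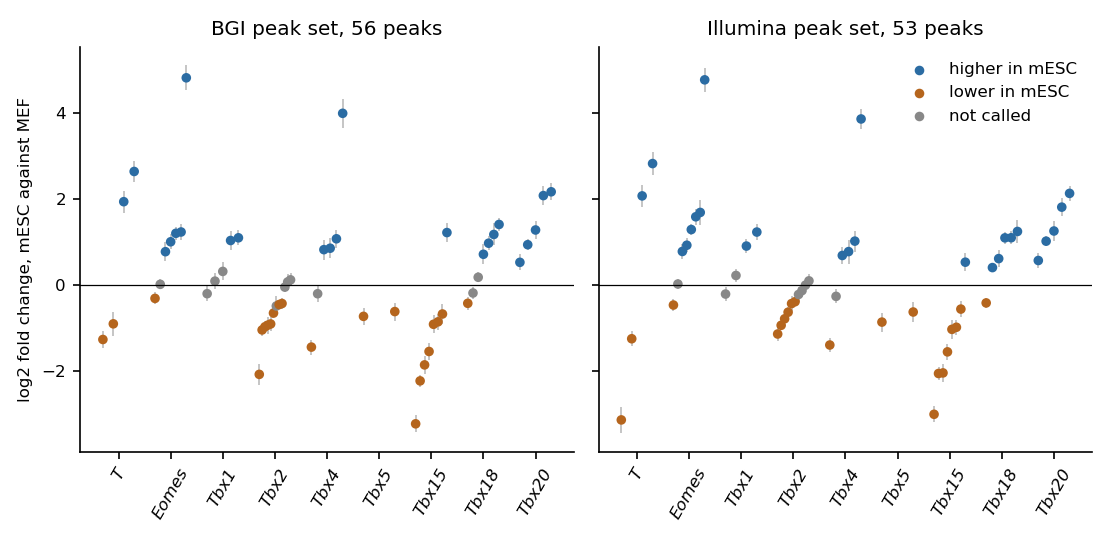
The log2 fold change (mESC against MEF) of every member peak, by gene, on the BGI and the Illumina peak set, with bars of 1 SE. Peaks called higher in mESCs are blue, those called lower are brown and those not called are grey. Tbx20 lies wholly above 0, Tbx5 wholly below 0, and the other 7 genes have peaks on both sides of 0 on BGI.

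Counts summed over all peaks of a locus gave 1 value per gene. They were called different for 8 of the 9 genes on each platform, 5 higher and 3 lower in mESCs. Of all gene loci 80.9% were called on BGI (40.5% higher and 40.3% lower) and 80.5% on Illumina (40.2% higher and 40.2% lower). Tbx20 had the highest log2 fold change, and rose from 35.6, 36.3 and 31.4 CPM in MEF libraries 1, 2 and 4 to 88.7, 76.8 and 80.8 CPM in mESC libraries 1, 3 and 5 on BGI (log2 fold change 1.20, SE 0.08, adjusted p = 2.63e-10). Eomes rose from 54.3 ± 0.989 to 100.2 ± 5.23 CPM (SD, n = 3, log2 fold change 0.83, SE 0.07, adjusted p = 1.39e-09). Tbx4, Tbx1 and Tbx18 rose by less, with log2 fold changes of 0.47, 0.45 and 0.41. In the other direction, Tbx15 fell from 87.4, 84.7 and 100.2 CPM in MEFs to 35.1, 32.8 and 37.4 CPM in mESCs (log2 fold change -1.42, SE 0.08, adjusted p = 1.33e-11). Tbx5 and Tbx2 had log2 fold changes of -0.65 and -0.56. The T locus, whose peaks went both ways, was at 18.5 ± 1.89 CPM in MEFs and 22.3 ± 1.46 CPM in mESCs and was not called (log2 fold change 0.22, adjusted p = 0.112 on BGI and 0.938 on Illumina). On BGI it was called with the down-sampled library sizes (log2 fold change 0.34) and over the gene body alone (log2 fold change 2.01), while the Tbx18 call was lost over the gene body alone (log2 fold change 0.09). The sums of Tbx1 and Tbx4 turned to lower in mESCs when the window was widened to 50 kb, with log2 fold changes of -0.39 and -0.24 on BGI. The 50 kb window of Tbx4 reaches into the neighbouring Tbx2 gene, so that sum is not of Tbx4 peaks alone. The share of Tbx2 peaks in it was not tested.

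**Figure D2:**
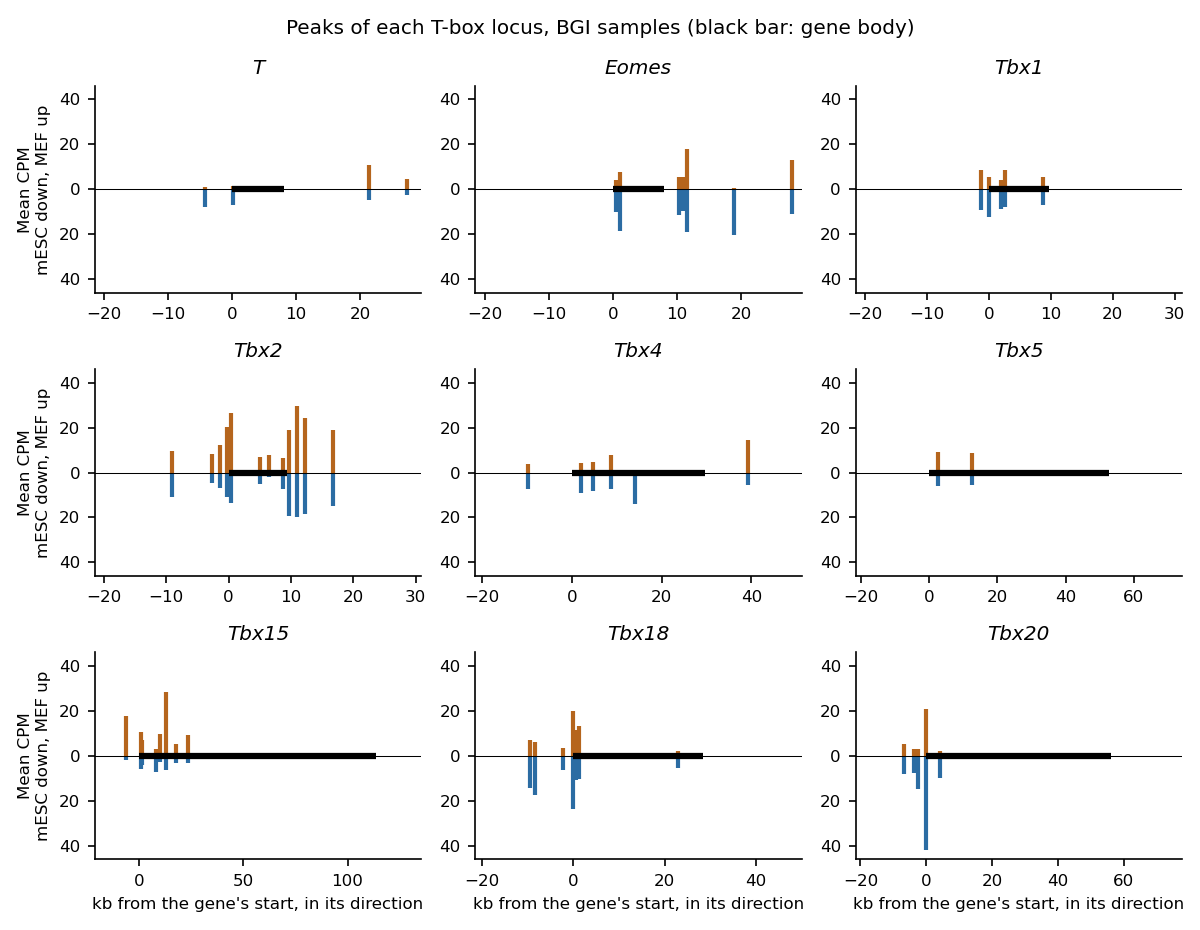
Mean CPM on BGI (n = 3) of every member peak along its gene, MEFs above and mESCs below the line, against the distance in kb from the first annotated start of the gene in its direction of transcription. Of the 8 Tbx15 peaks 7 are taller on the MEF side, the 5 Tbx20 peaks are all taller on the mESC side, and Eomes and Tbx4 each have 1 peak with almost no MEF signal.

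Each promoter was represented by the strongest peak, by mean CPM over both cell types on BGI, that overlapped the 1 kb on either side of an annotated start of that gene. Another promoter peak of the gene can be stronger in 1 cell type. In MEFs on BGI the order ran from Tbx15 at 28.3 ± 3.62 CPM and Tbx2 at 26.7 ± 3.36 CPM through Tbx20 at 20.8 ± 3.94 CPM and Tbx18 at 20.1 ± 0.761 CPM to Tbx5 at 8.98 ± 2.66 CPM (SD, n = 3). Below these came Eomes at 7.72 ± 1.04 CPM, Tbx1 at 5.54 ± 0.327 CPM, Tbx4 at 4.57 ± 1.78 CPM and T at 1.69 ± 0.341 CPM. The place of Tbx1 depends on the peak chosen. On the MEF peak set of both platforms, its promoter peak at chr16:18591614-18592138 had 8.79 ± 1.74 CPM in MEFs on BGI. Each of the first 4 overlapped its neighbour in the order, Tbx5 overlapped Eomes and Tbx1 overlapped Tbx4, while T lay below all others. In mESCs the order began with Tbx20 at 41.8 ± 3.99 CPM, Tbx18 at 23.9 ± 2.27 CPM and Eomes at 18.7 ± 1.58 CPM, each clear of the next. Tbx2 at 13.5 ± 1.63 CPM overlapped Tbx1 at 12.4 ± 1.74 CPM, and Tbx4 followed at 8.44 ± 0.625 CPM. It ended with T at 6.82 ± 0.792 CPM, Tbx15 at 6.29 ± 0.817 CPM and Tbx5 at 6.11 ± 0.793 CPM, whose ranges overlapped. The peaks have the same width but not the same GC content, and the order was not the same on both platforms. Illumina samples counted over the same peaks had 31.3 ± 2.26 CPM at Tbx2 and 26.96 ± 1.76 CPM at Tbx15 in MEFs, the reverse of the BGI order. In mESCs they had 26.1 ± 2.299 CPM at Eomes (GC 75.1%) and 22.7 ± 2.28 CPM at Tbx18 (GC 51.00%), again the reverse.

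**Figure D3:**
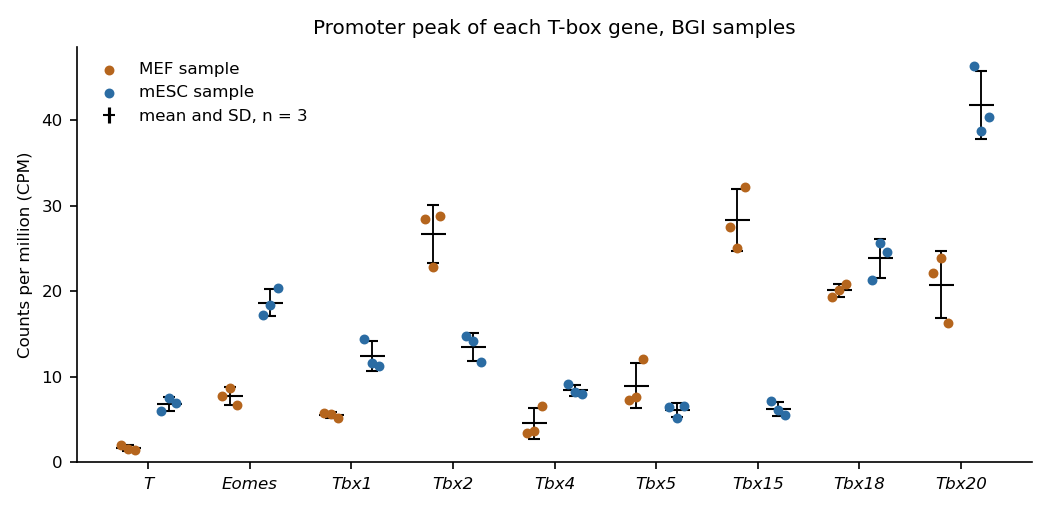
CPM of the strongest promoter peak of each gene in each BGI sample, with black bars for the mean and SD (n = 3). MEF and mESC samples do not overlap for any of the 9 genes, as at 85.1% of all BGI peaks, and the Tbx18 difference was not called.

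The T locus, on chromosome 17, was more accessible in mESCs at and upstream of the gene and more accessible in MEFs downstream. T is the founding member of the family and drives mesoderm and notochord formation. Its promoter peak (chr17:8434269-8434770, GC 62.9%) had 2.08, 1.54 and 1.44 CPM in MEFs and 5.99, 7.57 and 6.895 CPM in mESCs on BGI. That was a 4.04-fold difference of means with no overlap of the groups (log2 fold change 1.94, SE 0.26, adjusted p = 1.68e-06). No Illumina peak overlapped it by 50% or more. The Illumina set instead had a promoter peak just upstream (chr17:8433707-8434208, named after its values were seen) with 2.24, 1.39 and 1.53 CPM in MEFs and 6.06, 8.904 and 7.57 CPM in mESCs (log2 fold change 2.07, SE 0.26, adjusted p = 7.97e-07). An intergenic peak centred 4230 bp upstream of the gene (chr17:8429943-8430444) went the same way, with 1.29, 0.994 and 1.39 CPM in MEFs and 8.26, 7.57 and 8.39 CPM in mESCs (log2 fold change 2.64, SE 0.25, adjusted p = 1.97e-08). On Illumina its log2 fold change was 2.83 (SE 0.26), and no MEF sample on either platform had a summit called there by MACS2. On BGI this peak was on the reproducible list of mESCs only. It thus entered the set through mESCs, and the missing MEF summits are not independent of that choice.

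Downstream of T the order of the cell types was the reverse. The peak at chr17:8455524-8456025, centred 13278 bp past the end of the gene, had 11.7, 11.7 and 8.91 CPM in MEFs and 4.41, 4.02 and 5.65 CPM in mESCs, and all 3 MEF samples lay above all 3 mESC samples (log2 fold change -1.27, SE 0.20, adjusted p = 1.04e-05). Its printed sequence holds matches to TGANTCA and GGAATG. The Illumina set had a neighbouring peak at chr17:8456817-8457318 that the BGI set lacked (named after its values were seen), where MEFs had 5.13, 7.701 and 6.69 CPM and mESCs 0.563, 0.649 and 1.05 CPM (log2 fold change -3.14, SE 0.31, adjusted p = 3.21e-08). BGI samples counted over this same region had 7.298 ± 1.33 CPM in MEFs and 0.897 ± 0.484 CPM in mESCs (log2 fold change -3.11, adjusted p = 6.97e-08).

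Eomes, on chromosome 9, had the largest contrast of all member peaks. Eomes is required for definitive endoderm, early mesoderm and the trophoblast. An intergenic peak centred 11031 bp past its end (chr9:118496913-118497414) had 0.277, 1.19 and 0.597 CPM in MEFs (6 to 24 reads) and 23.8, 17.03 and 20.4 CPM in mESCs (288 to 378 reads) on BGI. The mESC mean was 29.6 times the MEF mean (log2 fold change 4.82, SE 0.29, adjusted p = 6.97e-11). With 1 library left out the log2 fold change ran from 4.48 (without MEF library 1) to 5.48 (without MEF library 2). On Illumina the samples had 0.886, 0.547 and 0.394 CPM and 21.7, 13.3 and 17.7 CPM (log2 fold change 4.78, SE 0.27, adjusted p = 3.49e-11). None of the 3 MEF samples and all 3 mESC samples had a called summit in it on each platform. On BGI it was on the reproducible list of mESCs only, so it entered the peak set through the cell type where it was high. The missing MEF summits are not independent of that choice. At the Eomes promoter (chr9:118478989-118479490, GC 75.1%) the difference was smaller, from 7.76, 8.75 and 6.67 CPM in MEFs to 17.3, 18.3 and 20.4 CPM in mESCs (log2 fold change 1.20, SE 0.15, adjusted p = 6.93e-07) and all 3 samples of each cell type had a called summit there.

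Between these 2 regions lies Gm33460, a long non-coding RNA gene downstream of Eomes, with 3 promoter peaks. Of these, 2 were called higher in mESCs, with log2 fold changes of 1.01 and 0.78. The strongest one (chr9:118489576-118490077) had 16.1, 17.9 and 19.7 CPM in MEFs and 17.8, 19.6 and 19.4 CPM in mESCs and was not called (adjusted p = 0.906). The peak at the promoter of Golga4, a neighbouring gene for a Golgi protein, was the only one in the window called lower in mESCs, at 13.3 ± 0.882 against 11.2 ± 0.7498 CPM (log2 fold change -0.31, SE 0.14, adjusted p = 0.04602). That call was lost under RLE scaling, with the down-sampled read numbers as library sizes, with DESeq2, with a mean count of at least 50 and without 5 of the 6 BGI samples in turn (adjusted p = 0.0576 to 0.287). The matching Illumina peak was called lower, at 18.2 ± 3.09 against 13.5 ± 1.81 CPM (log2 fold change -0.47, SE 0.14, adjusted p = 0.00519), although the groups overlapped.

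The factors of the heart and pharynx did not move as one. Tbx20, which is needed for growth of the heart chambers, was higher in mESCs at each of its 5 peaks on chromosome 9. Its promoter (chr9:24774173-24774674) had 22.1, 23.9 and 16.3 CPM in MEFs and 46.3, 38.7 and 40.4 CPM in mESCs on BGI, so it was open in both cell types and about 2.01 times as high in mESCs (log2 fold change 0.94, SE 0.13, adjusted p = 2.70e-06). Upstream, a peak at the promoter of the long non-coding RNA gene Gm29824 (chr9:24776452-24776953) had the larger contrast, with 2.86, 2.73 and 3.83 CPM in MEFs and 17.7, 12.7 and 14.1 CPM in mESCs (log2 fold change 2.17, SE 0.20, adjusted p = 1.18e-08). The remaining 3 had log2 fold changes of 0.53 to 2.08 on BGI.

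Tbx5, a factor of the forelimb and heart, had 2 peaks on chromosome 5, both called lower in mESCs by small margins. The promoter peak (chr5:119835049-119835550) had 7.25, 7.65 and 12.05 CPM in MEFs and 6.49, 5.204 and 6.65 CPM in mESCs on BGI (log2 fold change -0.62, SE 0.21, adjusted p = 0.0114). MEF library 4 stood above the other two, and the call was lost without it (adjusted p = 0.0882) and without mESC library 3 (adjusted p = 0.0751 on BGI and 0.0852 on Illumina). On Illumina the groups overlapped, with 8.35, 9.79 and 11.7 CPM against 7.25, 3.71 and 8.99 CPM (log2 fold change -0.63, SE 0.24, adjusted p = 0.0204). The exonic peak (chr5:119844944-119845445) had 8.68, 8.698 and 8.16 CPM in MEFs and 6.68, 4.26 and 5.22 CPM in mESCs (log2 fold change -0.73, SE 0.20, adjusted p = 0.00246).

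Tbx1, a factor of the pharyngeal arches and outflow tract, had 5 BGI peaks on chromosome 16, of which 2 were called, both higher in mESCs. The promoter peak with the highest mean over both cell types (chr16:18590448-18590949) had 5.82, 5.62 and 5.18 CPM in MEFs and 14.4, 11.6 and 11.2 CPM in mESCs, without overlap (log2 fold change 1.10, SE 0.17, adjusted p = 1.23e-05). A peak at an annotated start inside the gene (chr16:18588363-18588864) had 3.28, 3.33 and 5.43 CPM and 8.196, 8.46 and 9.13 CPM (log2 fold change 1.04, SE 0.22, adjusted p = 2.90e-04) and no Illumina counterpart. Illumina samples counted over it had 5.23 ± 0.878 CPM in MEFs and 9.90 ± 1.04 CPM in mESCs (log2 fold change 0.86, adjusted p = 2.72e-04). The 3 Tbx1 peaks that were not called had log2 fold changes of -0.20 to 0.32.

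Tbx18, a factor of the epicardium, sinus node and ureter mesenchyme, was nearly level at its promoter on chromosome 9 and higher in mESCs upstream. The promoter peak (chr9:87731115-87731616) had 19.3, 20.2 and 20.9 CPM in MEFs and 21.3, 25.7 and 24.6 CPM in mESCs on BGI and was not called (log2 fold change 0.18, SE 0.11, adjusted p = 0.143), but it was called with DESeq2 (adjusted p = 0.0478) and with the down-sampled library sizes (adjusted p = 0.0214). On Illumina it had 16.6, 16.7 and 16.8 CPM and 22.2, 25.4 and 20.96 CPM and was called (log2 fold change 0.41, SE 0.11, adjusted p = 0.00302). A second promoter peak inside the gene (chr9:87729825-87730326) was lower in mESCs, at 13.1 ± 0.959 CPM in MEFs against 10.2 ± 1.51 CPM (log2 fold change -0.43, SE 0.15, adjusted p = 0.0167), a call lost with the down-sampled read numbers as library sizes (adjusted p = 0.1096) and without mESC library 5 (adjusted p = 0.0973). The matching Illumina peak was called lower, at 19.9 ± 0.823 against 15.4 ± 1.49 CPM (log2 fold change -0.42, SE 0.12, adjusted p = 0.00332). Upstream, at the promoter of the non-coding gene Gm37374 (chr9:87739349-87739850), MEFs had 5.95, 5.67 and 7.37 CPM and mESCs 16.8, 19.8 and 16.1 CPM (log2 fold change 1.41, SE 0.16, adjusted p = 2.05e-07). D030062O11Rik is annotated on top of the Tbx18 promoter, so peaks there cannot be given to 1 gene alone.

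Tbx2, a repressor that can hold off senescence in fibroblasts, was the locus with the most peaks and was lower in mESCs. Its promoter peak on chromosome 11 (chr11:85832610-85833111) had 28.5, 22.8 and 28.8 CPM in MEFs and 14.8, 14.1 and 11.7 CPM in mESCs on BGI (log2 fold change -1.05, SE 0.13, adjusted p = 8.51e-07). On Illumina the values were 34.1, 30.1 and 29.3 CPM and 15.2, 18.5 and 16.7 CPM (log2 fold change -0.94, SE 0.11, adjusted p = 3.67e-07). The long non-coding gene 2610027K06Rik has an annotated start within 1 kb of the BGI promoter peak, but its body does not overlap that peak. The intronic peak at chr11:85838782-85839283 changed most, from 7.25, 9.24 and 6.87 CPM in MEFs to 1.77, 1.71 and 2.298 CPM in mESCs (log2 fold change -2.08, SE 0.24, adjusted p = 3.01e-07), and the Illumina set had no peak there. Illumina samples counted over it had 6.32 ± 1.19 CPM in MEFs and 1.797 ± 0.336 CPM in mESCs (log2 fold change -1.87, adjusted p = 2.60e-06). The 4 Tbx2 peaks that were not called on BGI had log2 fold changes of -0.49 to 0.12, and the strongest of them, at the end of the gene (chr11:85841923-85842424), had 18.99 ± 2.42 CPM in MEFs and 19.2 ± 1.604 CPM in mESCs.

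Tbx4, which lies next to Tbx2 and acts in the hindlimb and lung mesenchyme, held the second largest contrast. Its intronic peak at chr11:85900204-85900705 had 0.185, 0.895 and 1.44 CPM in MEFs (4 to 29 reads) and 14.5, 13.4 and 13.9 CPM in mESCs (224 to 230 reads) on BGI (log2 fold change 3.997, SE 0.34, adjusted p = 4.90e-09). The ratio of the means was 16.6, and on Illumina the samples had 0.606, 0.845 and 0.886 CPM and 13.3, 11.4 and 10.7 CPM (log2 fold change 3.87, SE 0.24, adjusted p = 1.03e-10). MEF library 1 gave the lowest value on both platforms. On BGI this intronic peak was on the reproducible list of mESCs only, so it entered the set through the cell type where it was high. With 1 library left out the BGI log2 fold change ran from 3.55 (without MEF library 1) to 4.63 (without MEF library 4). An intergenic peak centred 9475 bp past the end of the gene (chr11:85925322-85925823) went the other way, from 14.2, 16.5 and 12.99 CPM in MEFs to 6.49, 4.73 and 5.59 CPM in mESCs (log2 fold change -1.45, SE 0.17, adjusted p = 4.20e-07). The promoter peak (chr11:85891000-85891501, within 1 kb of an annotated start inside the gene) had 3.42, 3.68 and 6.62 CPM in MEFs and 9.14, 8.22 and 7.95 CPM in mESCs (log2 fold change 0.82, SE 0.23, adjusted p = 0.00361).

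Tbx15, a factor of limb, skeletal and dermal mesenchyme, had the lowest log2 fold change of the 9 locus sums. A peak upstream of the gene on chromosome 3, inside an intron of Wars2 (chr3:99233646-99234147), had 16.7, 17.00 and 20.01 CPM in MEFs and 2.52, 1.48 and 1.99 CPM in mESCs on BGI, with a MEF mean 8.97 times the mESC mean (log2 fold change -3.23, SE 0.20, adjusted p = 8.74e-11). On Illumina it had 18.3, 18.6 and 19.99 CPM and 2.69, 2.83 and 1.74 CPM (log2 fold change -3.01, SE 0.18, adjusted p = 8.19e-11). The strongest promoter peak (chr3:99253016-99253517) belongs to an annotated start inside the gene and had 27.5, 25.1 and 32.2 CPM in MEFs and 7.19, 6.09 and 5.59 CPM in mESCs (log2 fold change -2.23, SE 0.14, adjusted p = 1.57e-10). At the first annotated start the change was smaller, with log2 fold changes of -0.86 and -0.91 at its 2 BGI peaks.

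One Tbx15 peak went against the rest of its locus. The intronic peak at chr3:99248291-99248792 had 3.14, 2.93 and 3.04 CPM in MEFs and 6.75, 7.15 and 8.39 CPM in mESCs on BGI (log2 fold change 1.22, SE 0.21, adjusted p = 3.91e-05). On Illumina it had 4.15, 4.97 and 3.99 CPM and 6.001, 7.25 and 6.26 CPM (log2 fold change 0.53, SE 0.20, adjusted p = 0.0228), and the Illumina call was lost without MEF library 1 (adjusted p = 0.0514), MEF library 4 (adjusted p = 0.0692) or mESC library 3 (adjusted p = 0.1198). It was the only member whose fold change was called different between the platforms when the difference itself was tested with the library as a block, and that call was lost under nearly all alternatives given in the closing section.

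**Figure D4:**
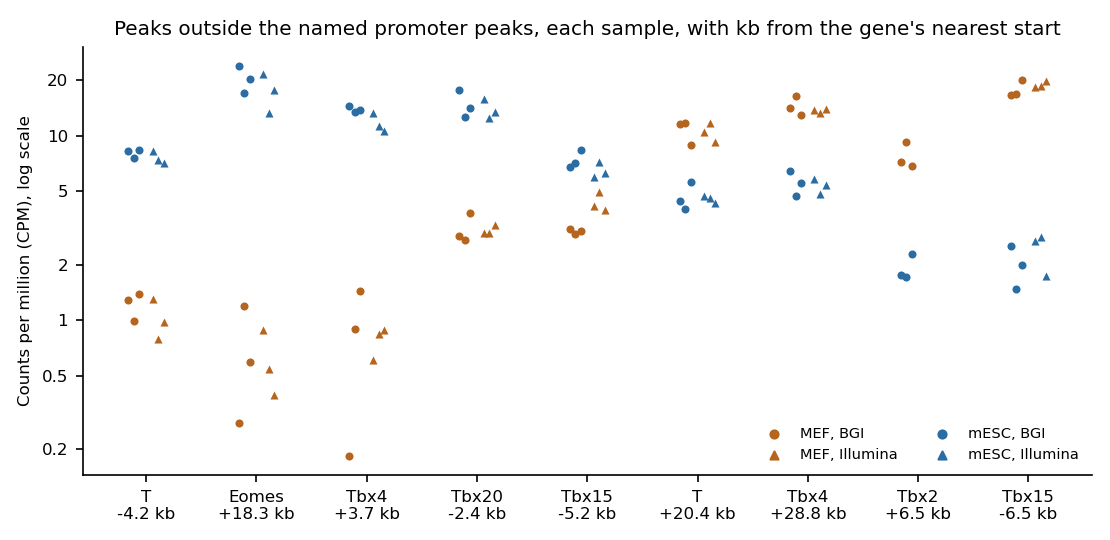
CPM (log scale) of 9 peaks other than the strongest promoter peaks in each sample, with BGI samples as circles and Illumina samples as triangles and the distance from the nearest annotated start of the gene below each name. The Eomes and Tbx4 peaks that were higher in mESCs show the widest gaps between MEF and mESC samples. The Tbx2 peak had no counterpart in the Illumina set.

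The peak sets of the platforms differed at these loci. Of the 56 BGI members 44 had an Illumina counterpart that covered 50% or more of their width, and of the 53 Illumina members 44 had such a counterpart in the BGI set. Of the 12 BGI members without a counterpart 3 were called higher in mESCs, 5 lower and 4 not called, and the Illumina samples counted over the same 12 regions gave 3, 4 and 5. Of the 9 Illumina members without a counterpart 4 were called higher, 3 lower and 2 not called, and the BGI samples over those regions gave 4, 2 and 3. These counts come from the same libraries, so the second platform is no independent sample.

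Sequencing the same libraries on both platforms gave member peaks a narrower range of fold changes than the cell types did, which ran from -3.23 to 4.82 on BGI. They were compared on peak sets drawn from both platforms, whose windows can be wider. The 40 member peaks of the MEF peak set had log2 fold changes (BGI against Illumina) of -0.59 to 0.42 and the 48 of the mESC set of -0.73 to 0.33. Treating the samples as unpaired, 2 of the 40 and 3 of the 48 were called, all lower on BGI, against 4.06% and 3.23% of all peaks (3.96% and 3.19% lower, 0.107% and 0.0418% higher on BGI). With the library as a block, which uses the pairing of the runs, 12 of the 40 (2 higher and 10 lower on BGI) and 13 of the 48 (2 higher and 11 lower) were called, against 29.2% and 21.3% of all peaks (13.9% and 5.78% higher, 15.3% and 15.6% lower). The blocked count was 7 to 12 in MEFs and 10 to 12 in mESCs with 1 library left out. The unpaired MEF count was 0 without library 1 or without library 2 and 5 without library 4, and the unpaired mESC count was 0 without library 1 or without library 5.

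Of the 5 peaks called lower on BGI without the block, the largest difference was at the Tbx18 promoter in mESCs (chr9:87730202-87730911, GC 73.2%), where BGI gave 12.04, 13.1 and 12.8 CPM and Illumina 17.9, 21.1 and 21.7 CPM in libraries 1, 3 and 5 (log2 fold change -0.73, SE 0.11, adjusted p = 0.00678 unpaired and 4.17e-16 with the block). The other mESC peaks called without the block were at the Eomes promoter (GC 74.8%, log2 fold change -0.52) and at Tbx1 (GC 69.00%, -0.66). In MEFs they were 2 peaks at the Tbx18 promoter (-0.59 and -0.55). Across the member peaks the platform difference and the GC content had a Spearman rho of -0.80 in MEFs (40 peaks) and -0.68 in mESCs (48 peaks), against -0.58 and -0.55 over all peaks of the 2 sets. This is across peaks of the same 6 libraries, and peaks are not independent replicates.

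**Figure D5:**
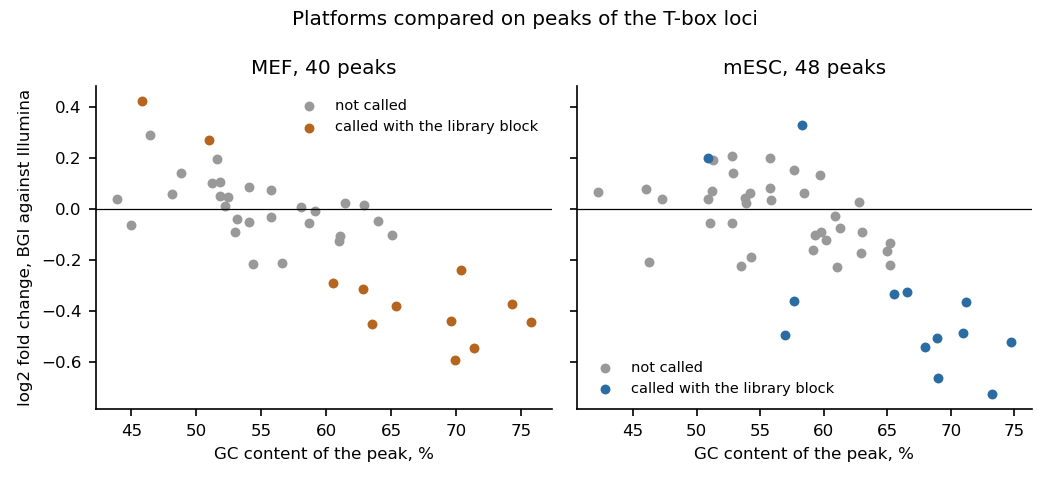
The log2 fold change of BGI against Illumina for the member peaks of the MEF set (40 peaks) and the mESC set (48 peaks) against the GC content of the peak in percent. Coloured points were called with the library as a block. All called MEF points below 0 lie at 60.5% GC or more, and called mESC points below 0 run from 56.97% to 74.8% GC.

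The other 8 T-box genes (Tbx3, Tbx6, Tbx10, Tbx19, Tbx21, Tbx22, Tbr1 and Mga) had 53 peaks on BGI, of which 28 were called higher in mESCs and 14 lower, with a median log2 fold change of 0.51 against 0.04 for the 56 member peaks and -0.08 for all peaks. On Illumina 24 of 48 were higher and 12 lower. Of all peaks 40.9% were called higher and 43.2% lower on BGI, and 42.1% and 42.4% on Illumina, and the difference of these loci from all peaks was not tested. Tbx3, a factor that stem cells themselves express, had 9 of 14 BGI peaks higher in mESCs and 3 lower. Tbx22 had no peak in either set. Genes known as direct or close targets of T-box factors were followed at their strongest promoter peak. Of 15 such genes 13 had one, and on BGI 8 were called higher in mESCs (among them Wnt3a, Dll1 and Foxa2, named after their values were seen), 1 lower (Fgf10) and 4 were not called, where 84.1% of all BGI peaks were called. On Illumina 11 were higher and none was lower, where 84.5% of all peaks were called, and only 7 were called without MEF library 2 or without mESC library 3. At Fgf8 and Fgf10 the strongest promoter peak of the BGI set and that of the Illumina set lay at different places. That of Fgf8 was at 9.19 ± 2.06 CPM in MEFs and 8.33 ± 0.371 CPM in mESCs on BGI (adjusted p = 0.291), and at 5.12 ± 0.647 and 13.1 ± 0.538 CPM on Illumina (adjusted p = 6.98e-07). That of Fgf10 was at 9.19 ± 1.299 CPM in MEFs and 5.82 ± 0.508 CPM in mESCs on BGI, and at 7.57 ± 0.988 and 10.97 ± 1.84 CPM on Illumina. Msgn1 and Nppa had no promoter peak.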

How the data were processed

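Omni-ATAC-seq libraries of 3 MEF and 3 mESC biological replicates were each sequenced on both platforms, and the labels gave each sample's cell type, platform and library number. The authors trimmed Illumina reads from 150 to 100 bp, aligned with Bowtie2 to GRCm38.p6, removed duplicates, mitochondrial reads and reads of mapping quality under 10, and down-sampled to a read number fixed per cell type, larger for MEFs. They called peaks per sample with MACS2 at p 0.01, kept 501 bp windows with a depth-scaled score of at least 3 in at least 2 samples, and counted reads with subread. The deposited values used here were these raw counts per peak and, for summits, the deposited −log10 p and fold enrichment ratio of MACS2. The deposited windows of the single-platform member peaks span 502 bp. Count columns without a platform suffix were taken as Illumina.

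Each BGI comparison of mESC with MEF used BGI samples on the BGI peak set, and likewise for Illumina. Platforms were compared within a cell type on the peak set of both platforms. Fits across all peaks used edgeR's quasi-likelihood test (version 4.0.16) with TMM scaling, filterByExpr and Benjamini-Hochberg adjustment at 0.05, and were tested on simulated counts. DESeq2 (version 1.42.0), RLE scaling, down-sampled read numbers as library sizes, a mean count of at least 50, other windows and each library left out were alternatives. Gene positions were from GENCODE M21. Named peaks were, per gene on the BGI set, the promoter peak of highest mean CPM and the other peaks of lowest adjusted p in each direction. The members and lists were chosen with earlier results of these data known. The values of 1 gene of the target list are not reported here.

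MEF and mESC share only library number 1, which pairs nothing. BGI and Illumina samples of the same number are 1 library sequenced on both platforms, per the study's methods, and deviations from group means correlated at 0.617 to 0.837 (MEF) and 0.515 to 0.725 (mESC) within a library against at most 0.289 between libraries, so a blocked fit is given beside the unpaired platform comparison. The 6 libraries, not the 12 samples, are the biological replicates.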

Additional observations from a re-analysis of the deposited data

Results flagged for a closer look

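The intronic Tbx15 peak at chr3:99248291-99248792 differed in its mESC-against-MEF fold change between the platforms. The difference (BGI minus Illumina, in log2) was 0.81 (SE 0.20, adjusted p = 0.0417, edgeR with the library as a block) on the BGI peak set and 0.82 (SE 0.20, adjusted p = 0.0330) on the Illumina peak set. On the BGI set the mean level was 3.04 ± 0.103 CPM in MEFs on BGI, 4.33 ± 0.482 CPM in MEFs on Illumina, 7.43 ± 0.854 CPM in mESCs on BGI and 6.49 ± 0.681 CPM in mESCs on Illumina (SD, n = 3). The median difference over all peaks was not 0 but 0.11 on the BGI set and 0.12 on the Illumina set. It was the 1 member peak called of 56 and of 53, against 0.386% and 0.671% of all peaks. Without the block the difference was 0.82 on both sets. That fit called 0 of all 91354 and 0 of all 87027 peaks by edgeR, members included, with 2.61% and 2.87% of all peaks and 2 members on each set at an unadjusted p under 0.05. RLE scaling in the blocked fit, which also called 0 of all peaks (6.86% and 6.96% of all peaks and 5 members on each set at an unadjusted p under 0.05) and moved the median of all peaks to -0.01 on both sets, gave a difference of 0.69 on both (adjusted p = 0.421 and 0.412). With 1 library left out the difference ran from 0.69 to 0.90 on the BGI set, where the call was lost for each of the 6 libraries, and from 0.65 to 0.89 on the Illumina set, where it was kept only without MEF library 4. These alternatives were chosen after seeing the data.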

How the results depend on the processing

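Of the member peaks, 45 were called on each platform, 43 to 46 on BGI and 41 to 44 on Illumina with 1 library left out. A log2 fold change of at least 1 left 24 on BGI and 25 on Illumina, and a window of 0 kb, which holds fewer peaks, left 24 and 23. The locus sums of Tbx1 and Tbx4 turned negative with a window of 50 kb, to -0.39 and -0.24 on BGI and to -0.36 and -0.24 on Illumina. At 50 kb the Tbx4 window takes in part of the Tbx2 gene. The T locus sum on Illumina, which was not called, was negative in 3 of the fits with 1 library left out (-0.0036 without MEF 1, -0.047 without MEF 4 and -0.025 without mESC 3, range -0.047 to 0.084). T-box target promoters called on Illumina numbered 7 to 10 with 1 library left out, an alternative chosen after seeing the data. Platform calls among members in MEFs rose from 2 to 12 with the library as a block and to 5 with DESeq2, and ran from 0 to 5 with 1 library left out. In mESCs they rose from 3 to 13 with the block and ran from 0 to 2 with 1 library left out. The cause of these shifts was not tested. Low counts limit the MEF values of the Eomes and Tbx4 peaks, at 6 to 24 and 4 to 29 reads.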
